A study of Mus musculus with 6 samples.

Results

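Cytosolic ribosomal proteins are the protein part of the ribosomes that translate nuclear-encoded mRNAs. Here they were taken as the genes whose symbol is Rpl (large subunit) or Rps (small subunit) followed by a number, with or without a closing a, x or l, together with Rplp0, Rplp1, Rplp2 and Rpsa. Pseudogene symbols with -ps were left out, but the rule kept 2 genes that GENCODE types as processed pseudogenes, Rpl6l and Rps4l. This rule, which uses names and no measured values, gave 81 of the 26656 genes in the table, 49 of the large and 32 of the small subunit.

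RNA-seq was carried out in N2a cells, a mouse neuroblastoma line of wild-type genotype, to ask whether the transcriptome changes when NPM1, a nucleolar histone chaperone, is reduced. The NPM1 KD group received the plasmid pLKO.1-shNpm1 (TRCN0000115430), a single shRNA construct, and the CTR group received pLKO.1-shCTR (Non Target #3). Cells of both groups were transfected and grown for 72 h. The labels state selection with 9.3 µg/ml Puromycin from 24 h after transfection for the knockdown experiments, and do not say separately whether CTR cells were selected. Each group has 3 libraries, sequenced as long nanopore reads from cDNA that was amplified by PCR. The description of the design gives 3 biological replicates and the treatment protocol gives 2, so the spread between libraries may in part be technical.

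The values used are regularized logarithms (rlog), scores on a log2 scale in which library size has been normalized and the values of weakly counted genes are pulled towards the average of that gene. Every value of 1 or more in size was deposited as a whole number. A difference of 1 between libraries therefore stands for an unrounded difference anywhere between 0 and 2, and 1 value in all libraries does not show equal levels. The tables do not give total reads. Genes with a single read gave relative depths of 0.784 to 1.30 for the 6 libraries, without showing which library has which depth. Npm1, the targeted gene, stood at 10 in each CTR library and at 8 in each NPM1 KD library (difference −2, SE 0.33, adjusted p = 3.23e-06, limma with Benjamini-Hochberg adjustment). Of 14 neuronal and neuroblastoma markers 8 were high enough to be tested, Hand2 among them, while Nefl and Nefm were listed at 0. Chga and Chgb, which encode granins of secretory vesicles, fell by 1.33 and fell by 1.67 in NPM1 KD (adjusted p = 0.026 and 0.0011, limma), and the NPM1 KD libraries of 5 of the 8 markers all lay below the CTR libraries. None of the 4 fibroblast and 4 leukocyte markers reached the level for testing, and their values lay between −2 and 0.589. The part of the change in neuronal markers in the values below was not tested. In bulk RNA, less RNA per cell and fewer cells of a kind cannot be told apart.

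Ribosomal proteins are made in the cytosol, imported into the nucleus and joined to ribosomal RNA in the nucleolus, where NPM1 is abundant. Each ribosome carries close to one copy of most of these proteins, and surplus protein is degraded. Their mRNAs are short, very abundant and belong to the TOP mRNAs, whose transcripts begin with a cytosine followed by a run of pyrimidines. LARP1 binds this run, and mTOR signalling controls the translation of such mRNAs through it. Most ribosomal protein genes also have many processed pseudogenes, copies of their mRNA that were inserted elsewhere in the genome.

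Runs of pyrimidines near the start site were common in the members, but not general. RefSeq promoters (build GRCm38.p6) were found for 59 of the 81 members, and the window below spans 10 bases before to 20 bases after the start, on the strand of the gene. Capitals mark the longest run of C and T in each gene's region around the start, as far as it lies in the window. The first 5 were picked as members with a long run at the start. The last 2, Rps13 and Rps28, were picked among members with higher mean values in NPM1 KD and only a short run. These examples do not link run length to the differences. Rpl11 and Rps7, with longest runs of 17 and 13 bases, also had higher means in NPM1 KD. Rplp0 and Rps3, with longest runs of 7 and 5 bases, had lower ones. Counts by run length are given after the windows.
Rplp2, chr7:141447641-141447670, + strand: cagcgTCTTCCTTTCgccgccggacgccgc
Rps6, chr4:86857348-86857377, − strand: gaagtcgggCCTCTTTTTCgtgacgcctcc
Rps18, chr17:33955646-33955675, − strand: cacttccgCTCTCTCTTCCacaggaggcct
Rpl35, chr2:39005112-39005141, − strand: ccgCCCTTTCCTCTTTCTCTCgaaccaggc
Rps27, chr3:90213629-90213658, − strand: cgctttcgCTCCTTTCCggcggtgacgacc
Rps13, chr7:116334171-116334200, − strand: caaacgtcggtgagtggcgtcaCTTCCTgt
Rps28, chr17:33824543-33824572, − strand: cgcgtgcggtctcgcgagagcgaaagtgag

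A run of at least 8 pyrimidines between 20 bases before and 50 bases after a listed start was found in 47 of the 59 members (79.7%) and in 28.5% of the 27025 genes with a promoter in the table. In the other members no such run was found, and in many of the 47 it lay away from the start, since a run of at least 8 within the 30-base window was found in 23 of the 59 members (39.0%) and in 13.01% of all genes. The longest run had a median of 10 bases in the members and 6 bases over all genes. CCGGAAG, the core to which ETS factors bind, stood on either strand of the promoter, 250 bases before to 50 bases after the start, in 25 members (42.4%), against 9.93% of all genes. AANATGGC, a YY1 core, was found in 10 members (16.9%) against 6.96%, also on either strand. TATAAA in the 50 bases before the start was found in 0 members and in 3.15% of all genes. These are matches of letters in a window and do not show binding. Among the members with a promoter, 56 were high enough to be tested. Of the 45 with a run of at least 8, 10 had a higher and 3 a lower mean in NPM1 KD, with a mean difference of 0.044. Of the 11 with a shorter run, 4 were higher and 2 lower, with a mean difference of 0.18.

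The members are among the most counted genes in these cells. The authors' mean normalized counts, which are averages over all 6 libraries and are not corrected for length, added up to 143990 for the 81 members, 17.1% of the 841220 over all genes. The test took genes whose mean rlog was log2 of 10 or more, and 76 members passed this filter, 45 of the large and 31 of the small subunit, out of 5752 genes in all. The other 5 were low in every library. Rpl10l, a testis-restricted copy of Rpl10, was listed at 0 in all 6 libraries. Rpl3l, the muscle-restricted relative of Rpl3, was at −1, −1 and −2 in CTR and at −2 in each NPM1 KD library, and Rps4l was at −2 throughout. Rpl23a and Rpl35, which encode core proteins of every ribosome, were listed at 3 and at 1 in all libraries. Both have other gene entries that share most of their coding sequence, described with the copies below.

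NPM1 KD left most members at the same rounded value as CTR, and no member passed the test. The member differences lay between −1 and 1. A full step in all libraries gave Rplp1 and Rps13 an adjusted p of 0.079 (limma). The main test thus did not call a full step in these members, and 0 calls do not show unchanged levels. Of the 76 members tested, 0 were called higher or lower at an adjusted p below 0.05 (limma with Benjamini-Hochberg adjustment over all genes tested), where 0.487% of all tested genes were called, 0.0695% higher and 0.417% lower. There were 7 members with an unadjusted p below 0.05, against 14.1% of all tested genes, 6.07% higher and 8.07% lower. The 4 higher ones were Rps13, Rps28, Rps14 and Rpl8, and the 3 lower ones were Rplp1, Rps27 and Rpl10. One value stood in all 6 libraries for 48 members (63.2%), compared with 40.2% of all tested genes. The shares given here were not matched for level. The median of the authors' mean normalized counts was 1673 for the tested members and 28.4 for all tested genes. Whether the members are steadier than other genes of their level was not tested. The mean over libraries was higher in NPM1 KD for 18 members (23.7%), lower for 8 (10.5%) and equal for 50, against 24.6% higher and 27.4% lower over all tested genes. The median difference was 0 for the members and for all tested genes, and the means were 0.057 and −0.024. Without NPM1 KD replicate 1, 10 members were higher, 7 were lower and 59 were equal.

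**Figure D1:**
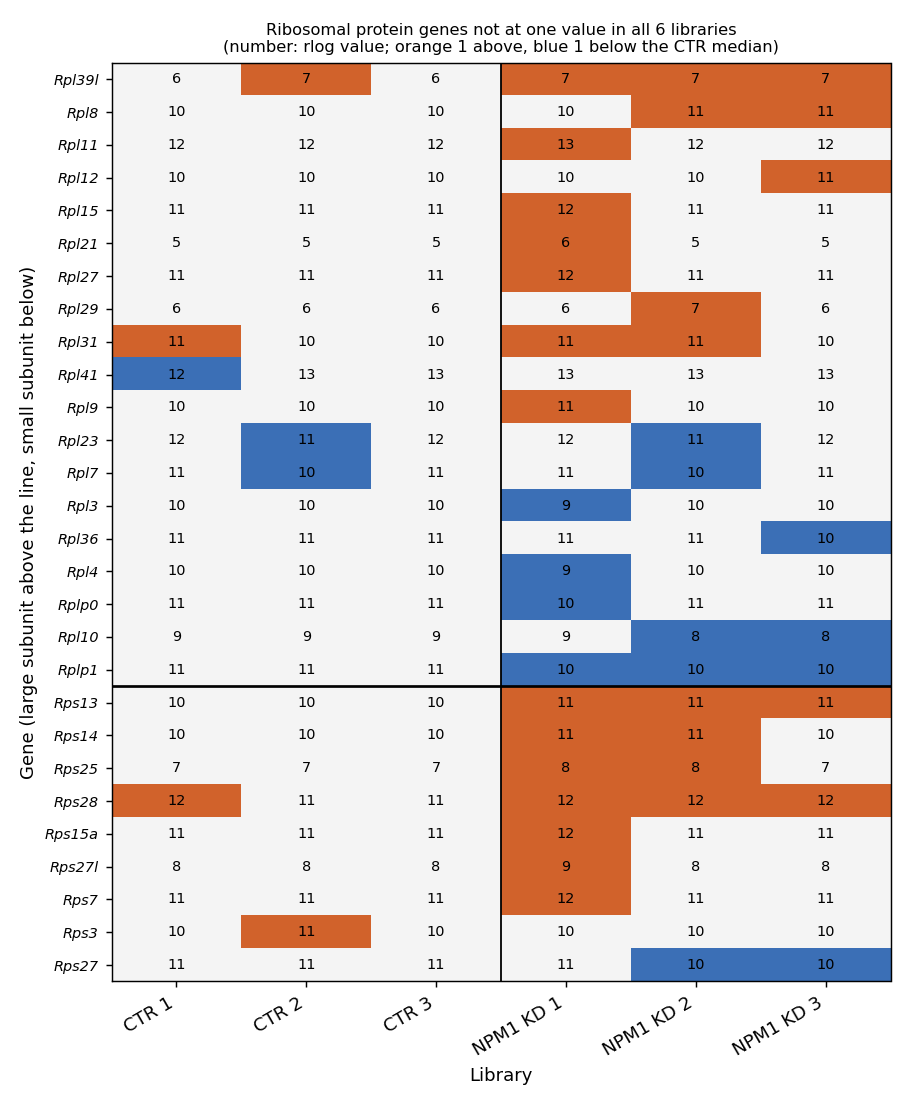
Rlog values (log2 scale, whole numbers) of the 28 tested members that are not at 1 value in all 6 libraries, with genes in rows and libraries in columns. Orange cells are 1 above and blue cells 1 below the median of the 3 CTR libraries. Rps13 is orange and Rplp1 blue in all 3 NPM1 KD libraries, and NPM1 KD 1 holds the most orange cells.

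The 3 CTR libraries and the 3 NPM1 KD libraries did not overlap for 1 member in each direction, where 5.6% of all tested genes did not overlap, 2.19% higher and 3.41% lower. Rplp1 (ENSMUSG00000007892, chr9:61913284-61914542, − strand, GRCm38), an acidic protein of the P stalk that recruits elongation factors to the ribosome, was at 11 in each CTR library and at 10 in each NPM1 KD library. This is a difference of −1 (SE 0.31, n = 3 per group), with an adjusted p of 0.079 (limma). Rps13 (ENSMUSG00000090862, chr7:116331505-116334195, − strand, GRCm38), a protein of the small subunit body, was at 10 in each CTR and at 11 in each NPM1 KD library. Its difference was 1 (SE 0.31, n = 3 per group), also with an adjusted p of 0.079 (limma). Under 3 alternative settings both were called. Rplp1 and Rps13 passed with an adjusted p of 0.030 (limma) without the intensity trend. When only genes with a mean rlog of at least log2 of 50 were tested, it was 0.042. Without an allowance for rounding it was 2.4e-12, but both genes had a single rounded value within each group. Their SE then fell to 0.00033, so this small p follows from the rounding.

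The P stalk as a whole consists of Rplp0, its anchor on the large subunit, and of pairs of Rplp1 and Rplp2. Rplp2 was at 11 in all 6 libraries. Rplp0 was at 11 in each CTR library and at 10, 11 and 11 in NPM1 KD (difference −0.33, SE 0.31, adjusted p = 0.713, limma). Only Rplp1 of the 3 was thus lower in every NPM1 KD library, and whether its difference is larger than that of Rplp2 was not tested.

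Other members of the large subunit moved in part of the libraries. Rpl8, a protein near the peptidyl transferase centre, was at 10 in each CTR library and at 10, 11 and 11 in NPM1 KD (difference 0.67, SE 0.31). Rpl10, which joins late and completes the large subunit at the subunit interface, was at 9 in each CTR library and at 9, 8 and 8 in NPM1 KD (difference −0.67, SE 0.34). Rpl39l, a relative of Rpl39 known from the male germ line and from tumour cells, was at 6, 7 and 6 in CTR and at 7 in each NPM1 KD library. For these 3 genes the adjusted p was 0.33 (limma), and the groups overlapped in 1 value. Rpl3 and Rpl4, early-assembling proteins, were at 10 in every library except NPM1 KD 1, where both were at 9. Rpl41, the smallest ribosomal protein, was at 12, 13 and 13 in CTR and at 13 in NPM1 KD.

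The members known for signalling to p53 when ribosome assembly is disturbed stayed within 1 rounded step of their CTR values. Rpl5 and Rpl11 form a particle with 5S ribosomal RNA that binds and inhibits MDM2. Rpl5 was at 10 in all 6 libraries, while Rpl11 was at 12 in each CTR library and at 13, 12 and 12 in NPM1 KD (difference 0.33, SE 0.28, adjusted p = 0.713, limma). Rpl26, which also binds p53 mRNA, was at 11 in all libraries. Rpl23 was at 12, 11 and 12 in CTR and showed the same values in the same order in NPM1 KD. A list of 9 members mutated in Diamond-Blackfan anaemia, an inherited failure of red cell production, was read as well. Of these 9, 2 had a higher mean (Rpl11 and Rps7), 0 a lower one and 7 were at 1 value throughout. Rps19 at 11 and Rps26 at 12 were among them. The counts hold for the 9 listed only, and members outside the list, such as Rps27 and Rps28, were not counted.

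In the small subunit, more members lay above than below CTR. Rps28, a protein of the subunit head, was at 12, 11 and 11 in CTR and at 12 in each NPM1 KD library (difference 0.67, SE 0.29). Rps14, which lies on the platform near the mRNA exit, was at 10 in each CTR library and at 11, 11 and 10 in NPM1 KD (difference 0.67, SE 0.31). Rps25, used by several viral internal ribosome entry sites, was at 7 in each CTR library and at 8, 8 and 7 in NPM1 KD. Rps27 went the other way, at 11 in each CTR library and at 11, 10 and 10 in NPM1 KD (difference −0.67, SE 0.31). All 4 had an adjusted p of 0.33 (limma) and overlapped between the groups. Rps27l, the p53-responsive relative of Rps27, was at 8 in each CTR library and at 9, 8 and 8 in NPM1 KD (adjusted p = 0.713, limma).

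Several much studied small subunit genes showed no step at all. Rps6, the substrate of S6 kinases, and Rpsa, which is also known as a laminin receptor, were each at 10 in all 6 libraries. Rps27a, which is made as a fusion with ubiquitin, was at 12 throughout. Rps3, a head protein that also acts in DNA repair, was at 10, 11 and 10 in CTR and at 10 in NPM1 KD. Of 14 proteins of the head, 2 had a higher mean (Rps25 and Rps28), 1 a lower mean (Rps3) and 11 were at 1 value in all libraries.

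The 2 subunits were then compared. In the large subunit 11 of 45 tested members had a higher mean in NPM1 KD, 6 a lower one and 28 an equal one. In the small subunit 7 of 31 were higher, 2 lower and 22 equal. Averaged over its members, the large subunit had a mean rlog of 10.19 ± 0.013 (SD, n = 3) in CTR and 10.22 ± 0.039 in NPM1 KD, a difference of 0.030. The small subunit had 10.54 ± 0.019 in CTR and 10.63 ± 0.099 in NPM1 KD, a difference of 0.097. Both differences were below the SD of the NPM1 KD libraries and above that of the CTR libraries.

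Much of the small subunit difference lay in a single library. Its mean came to 10.55, 10.55 and 10.52 in the CTR libraries, against 10.74, 10.61 and 10.55 after NPM1 KD, where the highest CTR and the lowest NPM1 KD library are equal. In NPM1 KD 1, 7 of the 31 small subunit members were above the CTR median and 0 below it, compared with 4 and 1 in NPM1 KD 2 and 2 and 1 in NPM1 KD 3. For the large subunit the means were 10.20, 10.18 and 10.20 in the CTR libraries, against 10.27, 10.20 and 10.20 after NPM1 KD. Without NPM1 KD replicate 1 the difference was 0.043 for the small and 0.0074 for the large subunit. The large minus small subunit mean came to −0.35, −0.37 and −0.32 in the CTR libraries, against −0.48, −0.41 and −0.35 after NPM1 KD, so the groups overlapped. These means over members were not tested, because the members were chosen with results of these data known.

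**Figure D2:**
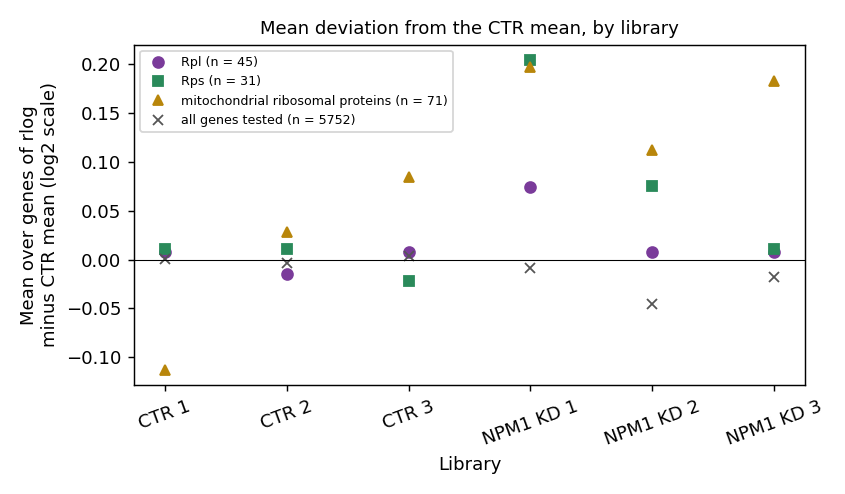
Mean over genes of the rlog value minus the mean of the 3 CTR libraries (log2 scale), by library, for the 45 large subunit and 31 small subunit members, 71 mitochondrial ribosomal protein genes and all 5752 genes tested. The small subunit is farthest from 0 in NPM1 KD 1 and near 0 in NPM1 KD 3, and the mitochondrial set lies above 0 in all 3 NPM1 KD libraries.

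Mitochondrial ribosomal proteins, which are also encoded in the nucleus but lack the pyrimidine start of the TOP mRNAs, gave a comparison set. Of 71 tested genes, 30 (42.3%) had a higher and 5 (7.04%) a lower mean in NPM1 KD, and 31 (43.7%) were at 1 value in all libraries. Their mean rlog was 5.52 ± 0.10 (SD, n = 3) in CTR and 5.69 ± 0.045 in NPM1 KD, a difference of 0.16. None was called (limma), and 6 genes, all of them higher, had an unadjusted p below 0.05. Mrpl46 and Mrpl50 were at 5 in each CTR and at 6 in each NPM1 KD library. The cytosolic members lie at higher values, where rlog shrinks less, and whether the sets differ was not tested.

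**Figure D3:**
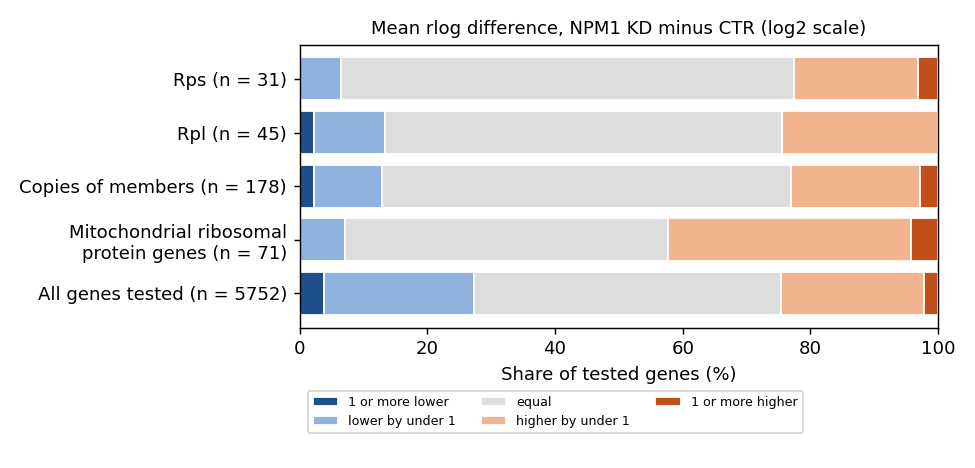
Share of tested genes (%) by the difference of mean rlog, NPM1 KD minus CTR, for small subunit (Rps) and large subunit (Rpl) members, copies of members, mitochondrial ribosomal protein genes and all genes tested. Grey marks equal means, blue lower and orange higher ones. Grey fills most of the bars of both subunits, and lower means take a smaller share of them than of all genes tested. The sets were not matched for level.

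Ribosome genes that the symbol rule leaves out and other genes of the same translation programme were read beside the members. Among 6 tested ribosome genes outside the rule, 4 had a higher mean, 1 a lower one and 1 an equal one. Rpl7l1, a relative of Rpl7 that acts in ribosome assembly, was at 5 in each CTR and at 6 in each NPM1 KD library (difference 1, SE 0.34, adjusted p = 0.079, limma). Rack1, a scaffold on the small subunit head, was at 10 in all libraries. Fau, the precursor of Rps30, was at 11, 10 and 11 in CTR and at 11 in NPM1 KD. Rpl36al was at 9, 9 and 10 in CTR and at 10 in NPM1 KD, and Rpl22l1, a relative of Rpl22, was at 8 in CTR and at 8, 7 and 7 in NPM1 KD.

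Other TOP mRNAs, mostly translation factors, had a higher mean for 4 of 18 genes, a lower one for 9 and an equal one for 5, with a median of −0.17. Pabpc1, the cytosolic poly(A)-binding protein, was at 8 in each CTR and at 7 in each NPM1 KD library (difference −1, adjusted p = 0.079, limma). Eef1a1, which brings aminoacyl-tRNA to the ribosome, was at 7 in each CTR library and at 6, 7 and 6 in NPM1 KD, whereas Tpt1 was at 11, 10 and 10 in CTR and at 11 in NPM1 KD. None of the 18 was called. Eef1a1 had a mean normalized count of 102, against 891 for Eef2 and 1065 for Eef1b2. Copies of these genes were not searched for, so their values may share the uncertainty described for the members below. Of 7 tested regulators of TOP mRNAs, 1 was higher and 1 lower. Larp1 was at 7 and Mtor at 4 in all libraries, and Mycn, a driver of ribosome production in neuroblastoma, was at 5, 4 and 5 in CTR and at 4 in NPM1 KD. Among 11 tested chaperones and importers of ribosomal proteins, 5 were higher, 1 was lower and 0 were called. Grwd1, a chaperone of Rpl3, was at 5, 4 and 5 in CTR and at 6, 5 and 6 in NPM1 KD (difference 1, adjusted p = 0.079, limma), and Ipo5 was at 5 in CTR and at 4, 4 and 5 in NPM1 KD.

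Reads of the members are shared with copies of their sequence elsewhere in the genome, which bears on the values above. A copy was taken as a gene entry that holds at least 50% of the 25-base words of a member's coding sequence in GENCODE release M21 (build GRCm38), while the reads were counted on GRCm39. Of the 76 tested members, 55 have at least 1 tested copy. The 178 distinct copies tested took 274956 of the authors' mean normalized counts (32.7% of all), compared with 143990 for the members. Of the 57 members with a tested copy, including Rpl23a and Rpl35, 48 have a copy with a higher mean count than their own. Rpl23a, for instance, had a mean count of 7.2 and its most counted copy, Gm10132, 2284. Rpl21 had 37 and its most counted copy, Gm10163, 2347. Rpl35 had 2.6 and its most counted copy, Gm2000, 2467. How these reads were divided is not given in the sources used here, so the values of such members are uncertain. Rplp1 has no copy by this rule.

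The Rps13 family shows how near the copies are. The stretch below is bases 340 to 429 of the 453-base coding sequence, chosen as the 90 bases with the most differences, and capitals mark bases that differ from Rps13.
Rps13: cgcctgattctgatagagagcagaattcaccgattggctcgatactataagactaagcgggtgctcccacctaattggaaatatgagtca
Rps13-ps2: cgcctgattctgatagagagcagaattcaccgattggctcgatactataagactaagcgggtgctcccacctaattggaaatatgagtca
Rps13-ps1: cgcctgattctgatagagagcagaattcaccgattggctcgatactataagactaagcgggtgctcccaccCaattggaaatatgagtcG
Rps13-ps4: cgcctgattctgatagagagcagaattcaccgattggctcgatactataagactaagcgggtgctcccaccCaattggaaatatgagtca
Rps13-ps5: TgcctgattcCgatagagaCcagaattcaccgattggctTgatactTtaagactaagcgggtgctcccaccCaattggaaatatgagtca

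Over the whole coding sequence Rps13-ps2 is identical to Rps13, and Rps13-ps1, Rps13-ps4 and Rps13-ps5 differ at 2, 3 and 12 bases. Rps13-ps1, Rps13-ps2 and Rps13-ps4 were at 11 in all 6 libraries and Rps13-ps5 at 10. The step of Rps13 from 10 to 11 was thus not seen in the rounded values of its 4 copies. The authors' mean normalized counts were 1725 for Rps13-ps2 and 1539 for Rps13. A step appears only where a rounding edge is crossed, so the copies may have changed by as much.

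The Rpl10 family went one way instead. The coding sequences of Rpl10-ps3 and Rpl10-ps1 are identical to that of Rpl10 over all 642 bases, and Rpl10-ps6 differs at 1 base, shown in capitals within bases 398 to 457.
Rpl10: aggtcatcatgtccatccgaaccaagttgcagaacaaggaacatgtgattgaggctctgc
Rpl10-ps6: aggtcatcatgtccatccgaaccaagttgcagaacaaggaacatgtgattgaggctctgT

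Rpl10-ps1, Rpl10-ps3 and Rpl10-ps6 were each at 11 in the 3 CTR and at 10 in the 3 NPM1 KD libraries (difference −1, SE 0.31, adjusted p = 0.079, limma). Rpl10 itself, with a mean normalized count of 422 against 1522 to 1621 for the copies, was lower in NPM1 KD 2 and NPM1 KD 3. Reads of one family that can be placed at any of these entries are not independent measurements.

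In the Rps12 and Rpl9 families some copies moved a full step in every NPM1 KD library where the member did not. The same limit of rounding applies, so member and copies may have changed alike. Rps12, a protein of the small subunit head, was at 11 in all libraries, while Rps12-ps3 and Rps12l1, whose coding sequences are identical to it over 396 bases, were at 11 in each CTR and at 12 in each NPM1 KD library. Rpl9 was at 10 in each CTR library and at 11, 10 and 10 in NPM1 KD, and Rpl9-ps4 and Rpl9-ps6, each with 1 mismatch in 576 bases, were at 10 in each CTR and at 11 in each NPM1 KD library. These 4 copies had an adjusted p of 0.079 (limma).

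**Figure D4:**
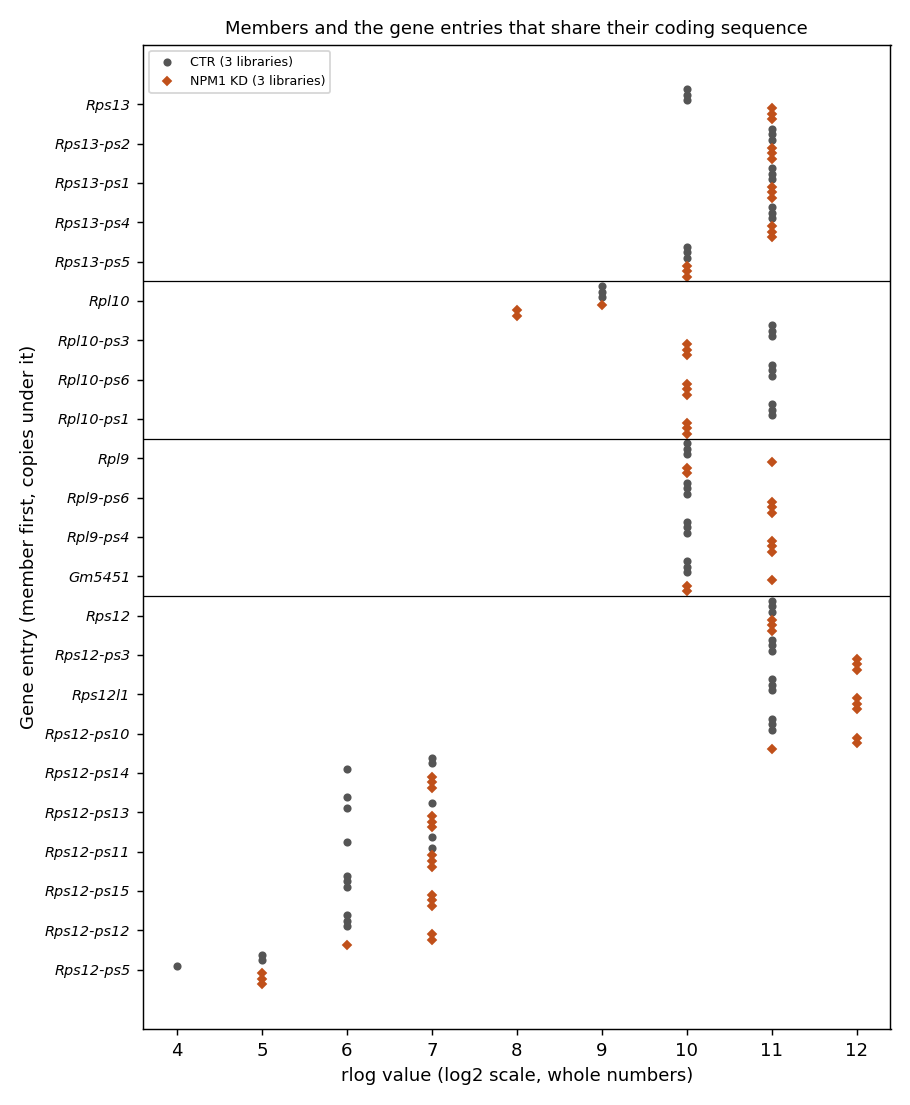
Rlog values (log2 scale, whole numbers) of Rps13, Rpl10, Rpl9 and Rps12 and of their tested copies, with 1 row per gene entry, dots for the 3 CTR and diamonds for the 3 NPM1 KD libraries, spread vertically so that equal values can be seen. Rps13 steps from 10 to 11 while its copies keep their rounded values, which does not show that they are unchanged. The 3 Rpl10 copies lie at 11 in CTR and at 10 in NPM1 KD.

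Over all copies, 41 of 178 had a higher mean in NPM1 KD, 23 a lower one and 114 an equal one, and 0 were called (limma). The libraries did not overlap for 5 copies that were higher and 4 that were lower. These were 2.81% and 2.25% of the copies, where 2.19% of all tested genes were higher and 3.41% lower without overlap. Besides those named, the copies were Rps12-ps15, at 6 in CTR and 7 in NPM1 KD, and Gm13611, a copy of Rpl36, at 11 in CTR and 10 in NPM1 KD. In the 169 pairs of a tested member and a tested copy, 93 had the same mean difference, 2 had differences of opposite sign and 7 were apart by 1 or more.

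Length and base composition of the mRNA were checked beside the differences. Both were taken from the longest principal transcript annotated for each gene in GENCODE, which need not be the one expressed. Rps15a, for instance, was taken at 5179 bases, against a median of 874.5 for the tested members. Across the 76 tested members, Spearman's rho between the difference and the mRNA length was 0.002 and that with GC content −0.03. With each NPM1 KD library set against the CTR mean in turn, rho with GC content was −0.184, 0.201 and −0.006 for NPM1 KD 1, 2 and 3, and rho with length lay between −0.06 and 0.067. These are given as a description across genes of the same libraries. For the group difference over all 5752 tested genes, rho was −0.031 with length and −0.102 with GC content, and with GC content it was −0.169, 0.01 and −0.073 for the 3 libraries.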

How the data were processed

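RNA-seq values came from 6 libraries of N2a cells, 3 CTR and 3 NPM1 KD, grouped by the sample labels. The authors deposited rlog values, scores on a log2 scale that are rounded to whole numbers, and a table of their own comparison with fold changes and p-values, of which only the mean normalized count was used. The submitters' processing notes name minimap2, featureCounts, DESeq2 and the build GRCm39, with no tool versions. The rlog table has 26913 rows, and repeated rows were reduced to 1 for each of 26656 gene identifiers.

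For genes whose mean rlog was log2 of 10 or more, groups were compared in R 4.3.3 by two-sided limma 3.58.1 tests with a variance trend on intensity. Within-group variances below 0.0833, the variance that rounding adds, were raised to it. P-values were adjusted after Benjamini-Hochberg over all genes tested, with a threshold of 0.05. The fit was tested on simulated data with planted changes larger than the difference of any member, so this does not show how well a single step is found. Members, gene lists and tests were chosen with earlier results of these data known. Genes were named when they were members that did not overlap between groups or moved most, or stood on lists chosen for their roles. Copies were found with Biopython 1.88 and described after their values were seen.

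Alternatives were no allowance for rounding, no trend, other filters, centring of each library, the replicate number as a block and leaving out each library. Depth sets counting error only. In the main test the SE followed the mean rlog of a gene and not its own spread. Rpl7 and Rps27, whose values varied differently within the groups, both had an SE of 0.3089. The p-values thus rest on the variance limit for rounding and on the trend, and do not measure the spread of a single gene.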

Additional observations from a re-analysis of the deposited data

How the results depend on the processing

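The count of members called was 0 with a filter of mean rlog above 0, with centring of each library and with the replicate block. It stayed at 0 (0 to 0) when any 1 library was left out. The count was 2, Rplp1 and Rps13, without the allowance for rounding, without the trend and with a filter of log2 of 50. With 1 library left out both kept a full step but had an adjusted p of 0.18 to 0.25 (limma). Counts of 0 thus do not show unchanged levels. Over all tested genes the main test called 4 higher and 24 lower. The numbers were 123 and 178 without the allowance, 132 and 218 without the trend, and 53 and 76 with the filter of log2 of 50. They were 0 to 2 and 5 to 9 with 1 library left out. The cause of these shifts was not tested. Mean differences of both subunits kept their sign throughout.

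The replicate numbers showed no pairing in the rounded values: deviations of CTR and NPM1 KD libraries with the same number correlated at 0.0089, 0.0013 and 0.03. Rounding hides small shared deviations, so these values cannot show that the libraries were unpaired. With the replicate number as a block, 1 gene was called higher and 7 lower over all genes. Rounding, and the unknown total of reads, limit what a single step can show.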
